A study of Mus musculus with 8 samples.

Results

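The 10 enzymes of methylarginine, nitric oxide and arginine metabolism examined here are Ddah1 and Ddah2, Nos1, Nos2 and Nos3, Ass1 and Asl, Arg1 and Arg2, and Odc1. They are 10 of the 25050 genes measured, and were chosen by their symbol in the deposited array table. For a gene with several probe sets the brightest over all 8 arrays would have been kept, but each of the 10 had 1 probe set, so no value was chosen over another. The arrays held RNA of mammary epithelial cells, cleared of adipocytes by rapid enzymatic digestion, from wild-type FVB female mice in a first pregnancy or lactation. Of these, 4 arrays came from day 4 of lactation, after secretory activation, and 4 from day 14 of pregnancy, after secretory differentiation. Neither stage had a transgene, mutation or drug, and the ages of the mice were not given in the sources used here. Nothing in the labels says that each array came from a mother of its own, so the spread behind the p-values may be technical.

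Proteins whose arginines have been methylated release free methylarginines when they are degraded, and some of these block nitric oxide synthases. Dimethylarginine dimethylaminohydrolases (DDAH) break them down to citrulline. Nitric oxide synthases turn arginine into nitric oxide and citrulline. Argininosuccinate synthase and lyase rebuild arginine from citrulline, and arginases split arginine into urea and ornithine, which ornithine decarboxylase commits to the polyamines. In lactating sows and goats the mammary gland is known to take up more arginine than it secretes in milk protein and to pass the surplus to ornithine, proline and polyamines.

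The values are deposited GC-RMA values on the log2 scale, on which a difference of 1 is a doubling. At lactation day 4, Ddah1, Odc1, Arg2 and Ass1 were higher and Ddah2 was lower, while the 3 nitric oxide synthase genes, Arg1 and Asl overlapped between the stages. In the fit across all genes (limma, lactation minus pregnancy, called at an adjusted p under 0.05), 25.8% of genes were called, 9.73% higher and 16.1% lower. Of the 9 members other than Ddah1, 3 were called higher and 1 lower, and 5 were not called. The set was proposed with earlier results of these data known, in which Ddah1 stood among the largest rises, so Ddah1 is described here with no test. All 4 lactation arrays lay above all 4 pregnancy arrays for Ddah1 and for 3 of the 9 other members, against 12.1% of all genes. They lay below them for 1 member, against 17.4% of all genes (29.6% in either direction). The median log2 difference was 0.08 over the 10 members, 0.03 without Ddah1 and 0.01 over all genes.

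**Figure D1:**
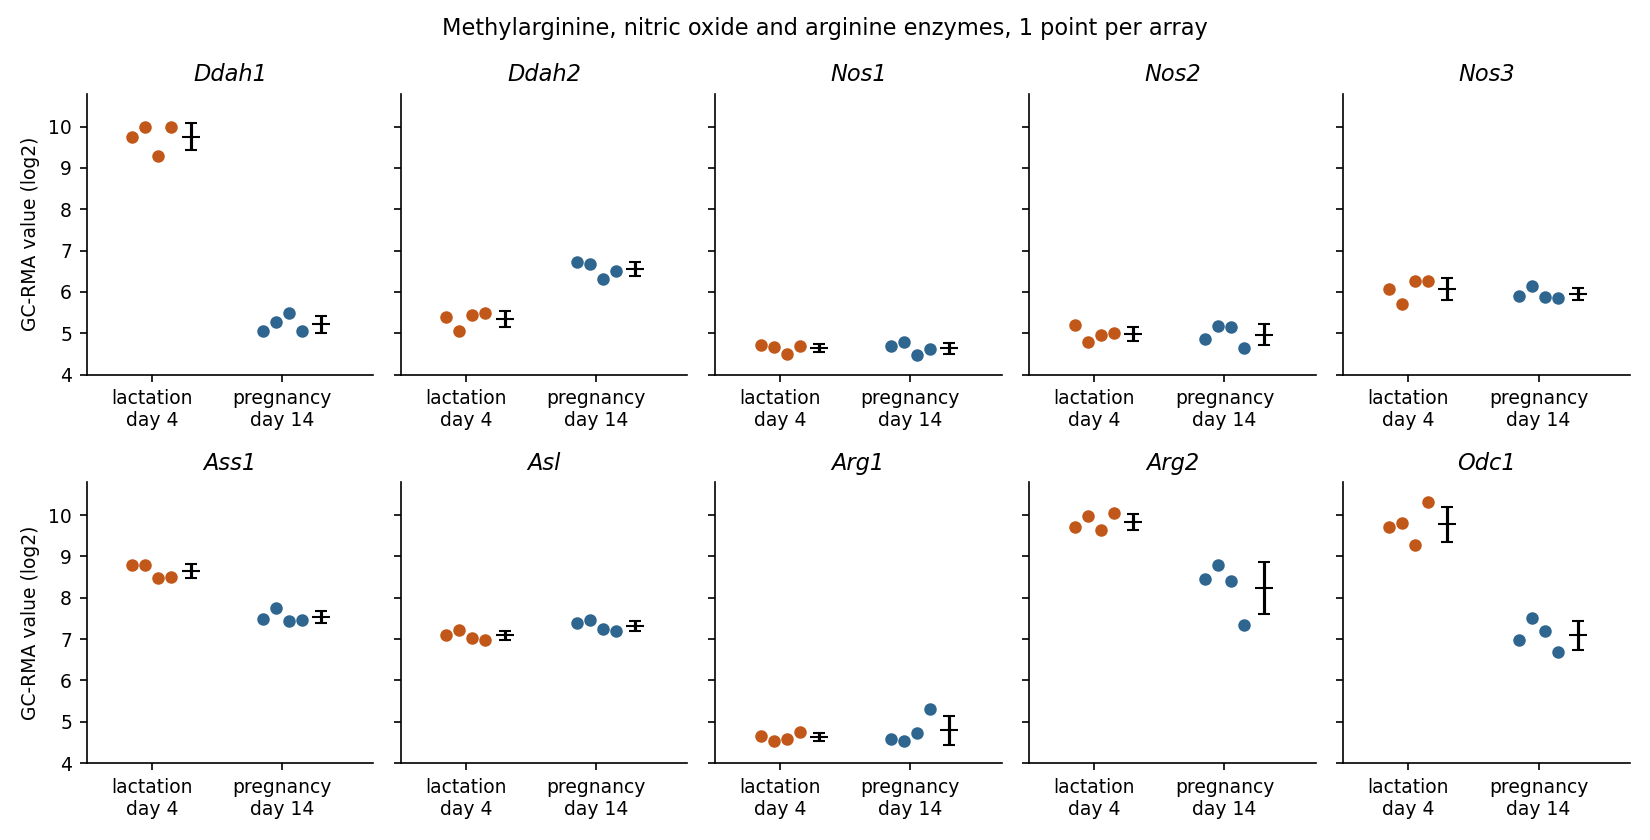
Each panel shows 1 gene, with the GC-RMA value (log2) of each of the 4 lactation day 4 arrays (orange, left) and the 4 pregnancy day 14 arrays (blue, right), and the mean ± SD of each stage beside the points. Ddah1, Ass1, Arg2 and Odc1 lie higher on every lactation array, Ddah2 lies lower, and the other 5 overlap.

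Markers of the labelled epithelium and of other cells are given beside the members. Epcam, an epithelial adhesion molecule, lay between 9.78 and 10.06 on the lactation arrays and between 9.88 and 10.17 on the pregnancy arrays. Krt8, a luminal keratin, averaged 9.97 ± 0.13 in lactation and 10.93 ± 0.19 in pregnancy (SD, n = 4 per stage) and fell by 0.96 (limma adjusted p = 0.000134). Of 9 luminal markers, 4 rose and 4 fell. Named after their values were seen, Elf5, Csn2, Wap and Lalba rose by 0.29, 0.36, 0.85 and 1.12. Csn2, Wap and Lalba averaged 12.72, 12.74 and 12.29 in lactation, where the highest value deposited was 13.03. Whether values this bright understate a rise was not tested. Krt18, Krt19 and Cdh1 fell by 1.03, 1.34 and 1.19. T cell and fibroblast markers each fell in 4 of 5 cases and macrophage markers in 3 of 10, and none of these rose past the threshold. None of 10 endothelial markers passed the threshold, and of 6 adipocyte markers 1 rose. The lowest value deposited for any probe set was 2.04, and no detection call was used, so whether dim markers rose above background is not known. The mean log2 value of the macrophage list ran from 5.59 to 6.66 in lactation and from 6.63 to 7.22 in pregnancy, and that of the fibroblast list from 6.53 to 7.87 in lactation and from 8.04 to 8.85 in pregnancy. The T cell list ran from 4.84 to 5.70 in lactation and from 5.90 to 7.30 in pregnancy. The endothelial list ran from 7.23 to 8.67 in lactation and from 7.64 to 8.56 in pregnancy. Although the cells were cleared of adipocytes, the adipocyte list ran from 6.02 to 7.63 in lactation and from 4.86 to 6.88 in pregnancy. The median over genes was 5.31. In RNA from mixed cells, fewer cells of a type and less RNA per cell cannot be told apart, and the part of these other cells in the results below was not tested.

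**Figure D2:**
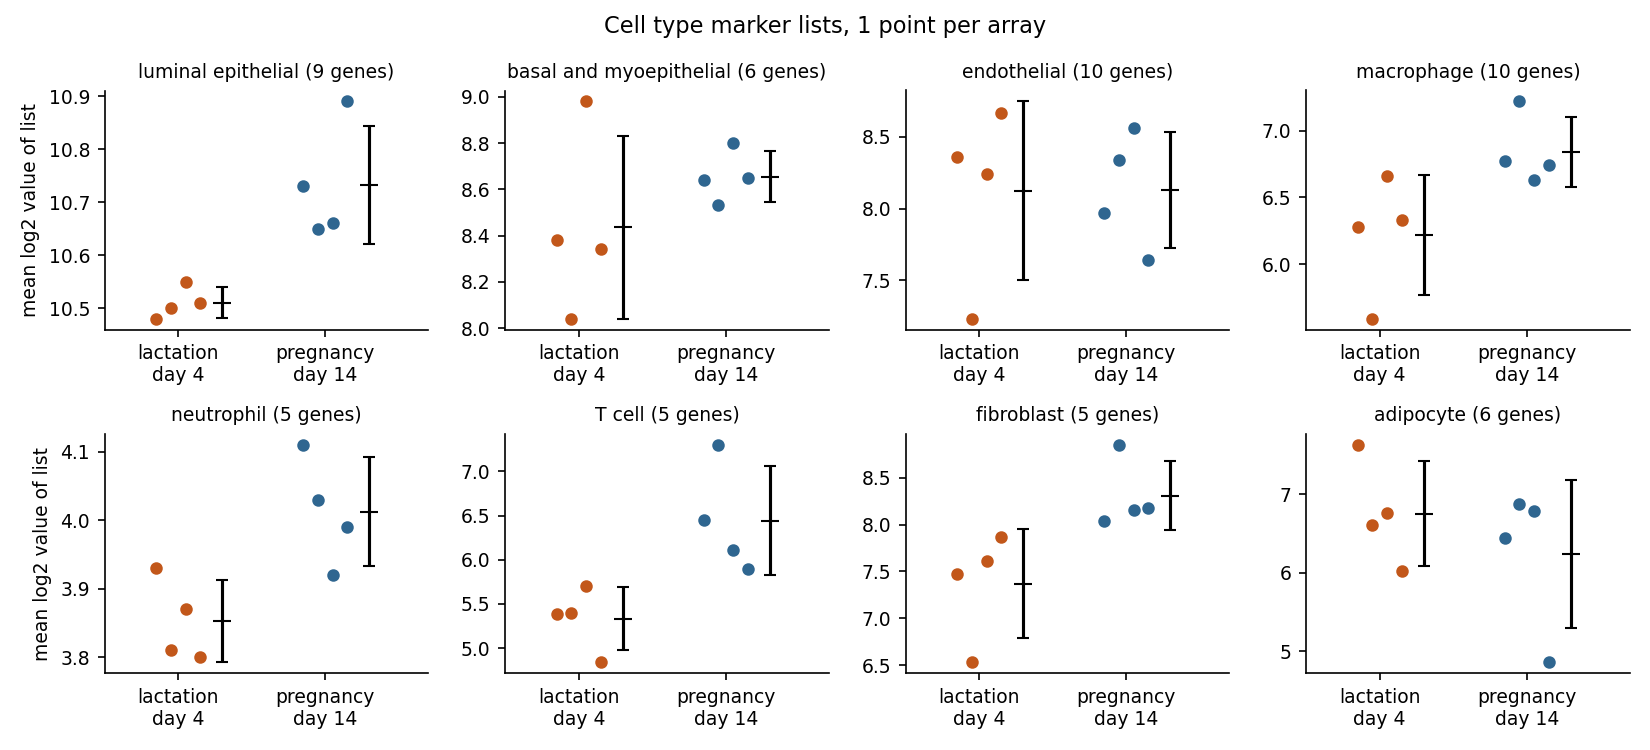
Each panel shows the mean log2 value of 1 list of cell type markers on each lactation day 4 array (orange, left) and pregnancy day 14 array (blue, right), with the mean ± SD of the 4 arrays, on an axis of its own. The means of the luminal, T cell and fibroblast lists are lower on every lactation array, although 4 of the 9 luminal markers rose. The endothelial list overlaps, with lactation replicate 2 the lowest at 7.23.

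Ddah1 encodes the enzyme that hydrolyses asymmetric dimethylarginine and monomethylarginine, the methylarginines that inhibit nitric oxide synthases. Its log2 values were 9.75, 9.999, 9.29 and 9.99 on the lactation arrays, against 5.05, 5.27, 5.48 and 5.07 on the pregnancy arrays. The lowest lactation array lay 3.81 above the highest pregnancy array. Ddah1 averaged 9.76 ± 0.33 in lactation and 5.22 ± 0.20 in pregnancy (SD, n = 4 per stage), a log2 difference of 4.54 (SE 0.166) or 23.3-fold on the measured values, and its rise was the fifth in size of 25050 genes. The pregnancy mean lay below the median over genes, 5.31, and values near background understate a difference.

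Ddah2 encodes the second DDAH protein, whose own activity on methylarginines has been questioned. It moved the other way, with 5.40, 5.07, 5.43 and 5.50 on the lactation arrays, against 6.72, 6.66, 6.32 and 6.50 on the pregnancy arrays. All lactation arrays were lower, by at least 0.82. Ddah2 fell by 1.20 on the log2 scale (SE 0.125, limma adjusted p = 0.000152), so that pregnancy exceeded lactation 2.3-fold, and its fall was number 244 in size among all genes. Taken within each array and centred on the mean over 8 arrays, Ddah1 minus Ddah2 ran from 2.32 to 3.40 in lactation and from -3.20 to -2.38 in pregnancy, a shift of 5.74 between the stages that is given as a description, since Ddah1 was known for its change.

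Promoter windows of the 2 DDAH genes are shown because the pair moved in opposite directions. They cover 250 bases before to 50 bases after a transcript start and were taken from RefSeq's mouse assembly GRCm38.p6, which held windows for 5 of the 10 members. Capitals mark matches, on either strand, to 7 motifs: the TATA box with the letters TATAAA, the CCAAT box, the GC box with the letters GGGCGG, the E-box with the letters CACGTG, the STAT site TTCNNNGAA, the cyclic AMP response element TGACGTCA and the ATF4 element TGATGNAA. The Ddah1 window is chr3:145758442-145758741 and the Ddah2 window chr17:35058785-35059084, both on the plus strand.
Ddah1: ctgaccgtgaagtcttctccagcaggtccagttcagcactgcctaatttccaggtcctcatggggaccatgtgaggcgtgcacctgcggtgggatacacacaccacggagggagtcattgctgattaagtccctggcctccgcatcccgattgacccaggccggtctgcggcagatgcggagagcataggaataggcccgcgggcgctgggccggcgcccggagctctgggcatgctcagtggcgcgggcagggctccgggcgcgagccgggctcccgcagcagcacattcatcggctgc
Ddah2: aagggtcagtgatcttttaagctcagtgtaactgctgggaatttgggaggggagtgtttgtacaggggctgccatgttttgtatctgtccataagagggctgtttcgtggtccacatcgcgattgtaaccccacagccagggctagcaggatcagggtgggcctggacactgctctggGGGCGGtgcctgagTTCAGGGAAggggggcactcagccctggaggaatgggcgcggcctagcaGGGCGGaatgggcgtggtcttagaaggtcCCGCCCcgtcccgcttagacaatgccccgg
The Ddah1 window held no match to any of the 7 motifs. The Ddah2 window held 3 GC boxes, a motif present in 35.7% of 32851 mouse promoter windows, and 1 STAT site, whose first base is base 193 of the window and which is present in 8.3% of windows. The Ddah1 window had 23 CpG dinucleotides and the Ddah2 window 12, against a median of 7 over all windows. A match is a description of these letters and says nothing of binding.

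The 3 nitric oxide synthase genes showed no difference between stages larger than the spread of the arrays. Nos3, the endothelial synthase, had log2 values of 6.06, 5.70, 6.27 and 6.26 in lactation, against 5.91, 6.15, 5.88 and 5.85 in pregnancy. Its log2 difference was 0.12 with a 95% confidence interval of -0.18 to 0.43 (limma adjusted p = 0.533), and over the 16 alternatives it ran from 0.06 to 0.30, never called. Lactation replicate 2 had the lowest Nos3 value of the 8 arrays and also the lowest mean of the endothelial markers, 7.23 against 7.64 to 8.67 elsewhere, and without that array the Nos3 difference was 0.25 (limma adjusted p = 0.146). The part of endothelial content in the Nos3 values was not tested.

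Nos2, the inducible synthase of activated macrophages, lay between 4.80 and 5.21 on the lactation arrays and between 4.65 and 5.18 on the pregnancy arrays, with a log2 difference of 0.03 (95% interval -0.27 to 0.33, limma adjusted p = 0.888). Nos1, the neuronal synthase, lay between 4.49 and 4.73 in lactation and between 4.46 and 4.79 in pregnancy, with a log2 difference of 0.01 (95% interval -0.19 to 0.21, limma adjusted p = 0.958). These intervals leave no room for a doubling of the measured value of any synthase, yet the measured values of Nos1 and Nos2 lay below the median over genes, 5.31. No detection call was used here, so whether their probes rose above background is not known, and array values near background understate differences.

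Ass1 and Asl encode the 2 enzymes that rebuild arginine from citrulline. Ass1, the synthase, had log2 values of 8.80, 8.80, 8.48 and 8.50 in lactation, against 7.48, 7.76, 7.45 and 7.47 in pregnancy. Every lactation array was higher, and Ass1 rose by 1.11 (SE 0.112, limma adjusted p = 0.000125), or 2.16-fold. Asl, the lyase, had 7.10, 7.23, 7.04 and 6.99 in lactation, against 7.39, 7.46, 7.25 and 7.19 in pregnancy. Its stages overlapped by 0.04, and its log2 difference of -0.23 (SE 0.096) was not called (limma adjusted p = 0.101). The changes of the 2 genes differed: Ass1 minus Asl, centred within the pair, ran from 0.56 to 0.81 in lactation and from -0.80 to -0.59 in pregnancy, a shift of 1.34. A two-sided exact permutation test over the 8 arrays gave p = 0.0286 for this shift, which is the smallest p that 70 splits allow. Adjusted by Benjamini-Hochberg over the 2 pairs tested, this permutation p was still 0.0286, because the 2 p-values were equal. The members were chosen with earlier results of these data known, and the shift is mostly the rise of Ass1 given above. The Ass1 stages lay 0.72 apart, and all Asl values lay between 6.99 and 7.46. This p therefore follows from the separation of Ass1 and adds no evidence of its own.

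The Ass1 window, chr2:31470020-31470319 on the plus strand, and that of Odc1, chr12:17544623-17544922 on the plus strand, are shown as the windows of the called risers that the table held, with the same motifs in capitals.
Ass1: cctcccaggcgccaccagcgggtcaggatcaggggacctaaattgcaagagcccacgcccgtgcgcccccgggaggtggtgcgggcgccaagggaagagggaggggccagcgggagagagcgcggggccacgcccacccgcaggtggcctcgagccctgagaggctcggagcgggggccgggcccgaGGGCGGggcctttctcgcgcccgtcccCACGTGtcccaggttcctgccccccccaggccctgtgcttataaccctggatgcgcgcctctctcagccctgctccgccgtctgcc
Odc1: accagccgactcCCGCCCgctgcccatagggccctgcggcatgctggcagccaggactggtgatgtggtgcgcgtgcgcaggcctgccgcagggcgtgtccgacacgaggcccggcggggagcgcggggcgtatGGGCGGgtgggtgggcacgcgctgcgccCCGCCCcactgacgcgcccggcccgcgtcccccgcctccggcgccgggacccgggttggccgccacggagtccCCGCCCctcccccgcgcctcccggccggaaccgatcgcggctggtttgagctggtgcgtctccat
The Ass1 window held 1 GC box and 1 E-box, a motif present in 7.15% of windows. The Odc1 window held 4 GC boxes and no E-box in these 300 bases. With 42 CpG dinucleotides, the Odc1 window exceeded 97.0% of windows, and the Ass1 window had 27.

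Arg1 and Arg2 encode the arginases. Arg2, the mitochondrial form, had log2 values of 9.71, 9.97, 9.65 and 10.04 in lactation, against 8.46, 8.78, 8.41 and 7.33 in pregnancy. The lowest lactation array lay 0.86 above the highest pregnancy array, and Arg2 rose by 1.60 (SE 0.263, limma adjusted p = 0.0019), or 3.03-fold. Pregnancy replicate 4 lay apart from the other 3, and without it the rise was 1.29 (limma adjusted p = 0.00021). That array also had the lowest Odc1 value and the lowest mean of the adipocyte markers, 4.86 against 6.44 to 6.88 on the other pregnancy arrays. Among the lactation arrays, replicate 4 had the lowest adipocyte mean, 6.02 against 6.61 to 7.63. It had the highest Arg2 and Odc1 values, 10.04 and 10.31. The part of adipocyte content in these values was not tested.

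Arg1, the cytosolic form known from liver and from macrophages, lay between 4.54 and 4.74 in lactation and had 4.59, 4.54, 4.73 and 5.32 in pregnancy. Its log2 difference was -0.16 (95% interval -0.51 to 0.18, limma adjusted p = 0.457), and pregnancy replicate 4 carried the highest value. Arg1 minus Arg2, centred within the pair, ran from -1.10 to -0.72 in lactation and from 0.09 to 2.32 in pregnancy. That shift of -1.76 had p = 0.0286 in the two-sided exact permutation test, again the smallest it allows, and 0.0286 adjusted over the 2 pairs. Without pregnancy replicate 4 the shift was -1.28, and without any 1 lactation array the exact p was 0.0571. The Arg1 means, 4.63 in lactation and 4.79 in pregnancy, lay below the median over genes, so whether its probe rose above background is not known. The shift is mostly the rise of Arg2 given above. The Arg2 stages lay 0.86 apart, and all Arg1 values lay between 4.54 and 5.32. The p over 8 arrays therefore follows from the separation of Arg2 and adds no evidence of its own.

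**Figure D3:**
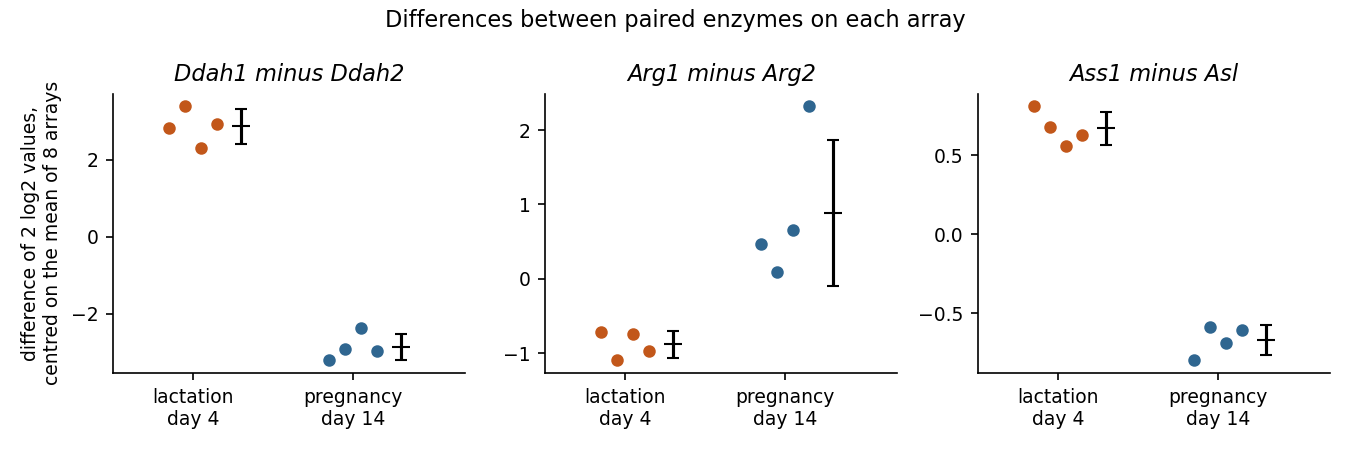
Each panel shows, for every array, the log2 value of 1 enzyme minus that of its partner, centred on the mean of the 8 arrays, for lactation day 4 (orange, left) and pregnancy day 14 (blue, right), with the mean ± SD of each stage. The stages do not overlap in any pair, with shifts of 5.74 for Ddah1 minus Ddah2, -1.76 for Arg1 minus Arg2 and 1.34 for Ass1 minus Asl.

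Odc1, ornithine decarboxylase, opens the synthesis of polyamines. Its log2 values were 9.71, 9.81, 9.27 and 10.31 in lactation, against 6.98, 7.51, 7.20 and 6.68 in pregnancy. Every lactation array was higher, by at least 1.75. Odc1 averaged 9.77 ± 0.43 in lactation and 7.09 ± 0.35 in pregnancy (SD, n = 4 per stage) and rose by 2.68 (SE 0.224, limma adjusted p = 3.81e-05), or 6.41-fold. By size its rise was number 27 among all genes, where that of Arg2 was number 176 and that of Ass1 number 355.

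**Figure D4:**
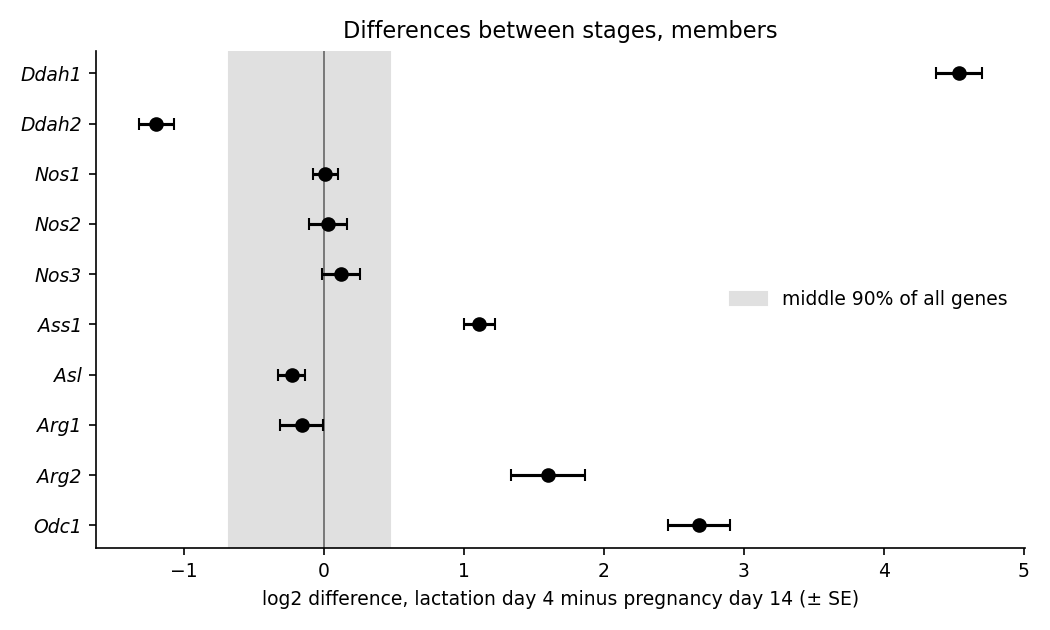
Points give the log2 difference of each member, lactation day 4 minus pregnancy day 14, with ± SE from the limma fit, and the grey band spans the middle 90% of all genes, from -0.68 to 0.47. Ddah1 (4.54), Odc1 (2.68), Arg2 (1.60) and Ass1 (1.11) lie above the band, Ddah2 (-1.20) below it, and the other 5 within it.

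The genes whose profiles lay nearest to the 3 most changed members were found by the root mean square distance between log2 values over the 8 arrays, each gene centred on its own mean, among 20624 named genes. The distance is set largely by the stage difference and is a description. Nearest to Ddah1 were Gsdmc, a gasdermin (0.20), Atp2b2, the apical calcium pump (0.41), and Egf (0.42). Nearest to Odc1 were Sftpd, a lectin of mucosal surfaces (0.18), Isg20 (0.23) and the dopamine receptor Drd4 (0.23). Nearest to Arg2 were Cytip (0.17), the milk transporter Abcg2 (0.23) and Gnb4 (0.24).

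The 6 lists of 64 other genes around these enzymes were read in the same fit, of which 10 were called higher and 16 lower, beside the 9.73% and 16.1% of all genes. In the carriers of arginine and ornithine 4 of 9 genes were called higher and none lower, with a median log2 difference of 0.10. Slc7a2, a cationic amino acid transporter of the plasma membrane, had 7.88, 7.86, 7.55 and 8.45 in lactation, against 6.26, 6.01, 6.29 and 7.15 in pregnancy. It rose by 1.51 (SE 0.253, limma adjusted p = 0.00212) with no overlap between the stages. Slc7a7, a light chain that pairs with Slc3a2 to exchange cationic amino acids, rose by 1.15 (limma adjusted p = 0.000975), and Slc25a29, a mitochondrial carrier of basic amino acids, by 0.61 (limma adjusted p = 0.0158, and 0.051 without pregnancy replicate 3). Slc7a6, named after its values were seen to complete the count, rose by 0.55. Slc7a1, the widely expressed cationic transporter, had a log2 difference of -0.06 (limma adjusted p = 0.665).

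Among 12 genes of the urea cycle and of ornithine, proline and creatine metabolism, 3 rose and 2 fell, and the median log2 difference was 0.10. With each array centred on its brighter 60% of genes, 8 were higher and 1 lower. Aldh18a1, which makes the precursor shared by proline and ornithine, had 9.92, 10.18, 10.03 and 10.01 in lactation, against 9.08, 9.07, 9.19 and 8.95 in pregnancy. It rose by 0.96 (SE 0.078, limma adjusted p = 3.24e-05). Pycr1, a mitochondrial reductase of the last step to proline, rose by 1.21 (limma adjusted p = 0.000884). Prodh, which oxidises proline, fell by 1.12 (limma adjusted p = 0.00204), and Pycrl, another proline reductase, fell by 0.43 (limma adjusted p = 0.015, and 0.0826 after quantile normalization). Oat, which links ornithine to the same precursor, had a log2 difference of 0.11 (limma adjusted p = 0.488), and the urea cycle genes Cps1 and Otc, with values of 3.98 and 3.02 in lactation, were not called.

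Of 14 polyamine genes, 2 rose and 3 fell, with a median log2 difference of -0.05, and 3 were higher and 2 lower with the brighter centring. Azin1, the antizyme inhibitor that spares ornithine decarboxylase from degradation, had 8.17, 8.47, 8.46 and 8.73 in lactation, against 7.09, 7.19, 7.16 and 7.18 in pregnancy. It rose by 1.30 (SE 0.115, limma adjusted p = 5.42e-05). Srm, spermidine synthase, rose by 0.73 (limma adjusted p = 0.00154). Sms, spermine synthase, fell by 0.77 (limma adjusted p = 0.00618). It averaged 4.58 in lactation and 5.35 in pregnancy, where the median over genes was 5.31. Whether its probe rose above background in lactation is not known. Sat1, which acetylates polyamines for export and breakdown, fell by 0.74 (limma adjusted p = 0.0019). Dhps, which uses spermidine to modify a translation factor, fell by 0.36 (limma adjusted p = 0.0109, and 0.0614 after quantile normalization). The antizymes Oaz1, Oaz2 and Oaz3 had log2 differences of 0.05, -0.11 and 0.02, none of them called.

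Of 10 genes in the list of arginine methyltransferases and Agxt2, another enzyme that clears methylarginines, 6 fell and none rose, with a median log2 difference of -0.33. Prmt1, which makes most asymmetric dimethylarginine in proteins, had 6.09, 5.94, 5.82 and 6.17 in lactation, against 6.93, 6.91, 6.91 and 7.14 in pregnancy. All lactation arrays were lower, and Prmt1 fell by 0.97 (SE 0.105, limma adjusted p = 0.00019). Prmt2 and Carm1, which also place asymmetric marks, each fell by 0.79 (limma adjusted p = 0.000372 and 0.000292). Prmt3, Prmt5 and Prmt9, named after their values were seen, fell by 0.40, 0.32 and 0.34. The count of 6 was 3 without pregnancy replicate 3 and 3 without pregnancy replicate 4, 4 after quantile normalization or with arrays centred on their median, and, when the median of the brighter 60% of genes centred each array, 3 lower against 1 higher. The calls of Prmt1, Prmt2 and Carm1 stood under all 16 alternatives run. The T cell and fibroblast markers fell on the same arrays. So did the luminal markers Krt8, Krt18, Krt19 and Cdh1, by 0.96, 1.03, 1.34 and 1.19, while 4 of the 9 luminal markers rose. The part of cell content, or of a wider fall in epithelial genes, in the methyltransferase falls was not tested.

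Among 12 genes of tetrahydrobiopterin, the cofactor of nitric oxide synthases, and of synthase partners, 1 rose and 3 fell, with a median log2 difference of -0.01. The balance turned to 3 higher and 2 lower after quantile normalization and to 4 higher and 2 lower with the brighter centring. Gchfr, a feedback regulator of cofactor synthesis, rose by 0.62 (limma adjusted p = 0.00382). Nos1ap, an adaptor of the neuronal synthase, fell by 0.88, Nosip, a synthase-interacting protein, by 0.53, and Pts, a cofactor enzyme, by 0.51 (limma adjusted p = 0.00305, 0.0021 and 0.0139, the last 0.0773 after quantile normalization). Gch1, the first enzyme of the cofactor pathway, had a log2 difference of -0.13 (limma adjusted p = 0.424).

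Downstream of nitric oxide, 2 of 7 genes fell and none rose, with a median log2 difference of -0.13. Prkg1, the cyclic GMP-dependent kinase, fell by 0.80 (limma adjusted p = 0.0483), a call that ended under 11 of 16 alternatives. Adh5, which reduces S-nitrosoglutathione, fell by 0.28 (limma adjusted p = 0.0243), a call that ended under 6 of 16. With quantile normalization, with either centring of the arrays or without pregnancy replicate 3, none of the 7 was called, and leaving out 1 of the other arrays gave 1 or 2. The receptor subunits Gucy1a1 and Gucy1b1 had log2 differences of -0.08 and -0.13 and were not called.

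**Figure D5:**
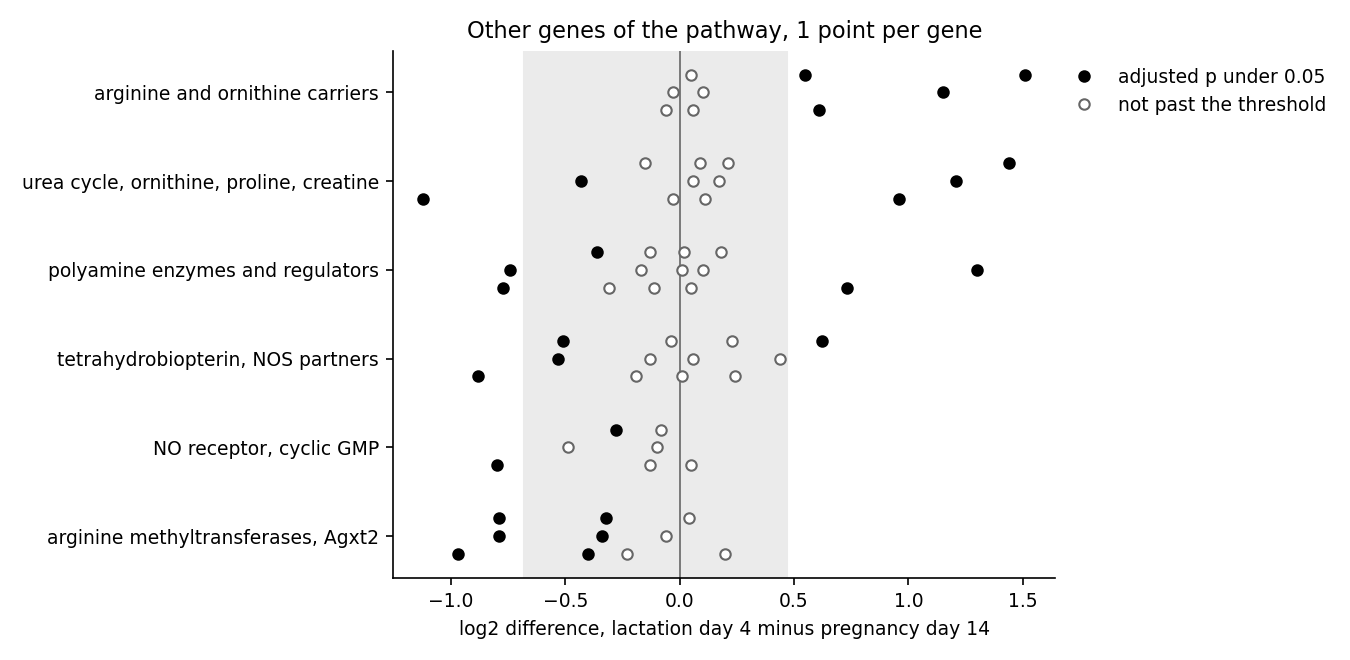
Each point is 1 gene of 6 lists around the members, placed by its log2 difference, lactation day 4 minus pregnancy day 14, filled where the limma adjusted p is under 0.05 and open otherwise, with the middle 90% of all genes in grey. Called carriers lie to the right of 0 and called arginine methyltransferases to the left, while the other lists, except the one for cyclic GMP, hold called genes on both sides.

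Over all genes, lower calls made up 62.3% of calls, but 47.1% once each array was centred on its median and 18.0% once it was centred on the median of its brighter 60% of genes, a choice which moved the median difference of all genes from 0.01 to 0.19. The directions of the 5 changed members, and the calls of the 4 of them that were tested, did not depend on this choice. Ddah1 differed by 4.46 to 4.72, Odc1 by 2.50 to 2.86, Arg2 by 1.29 to 1.78, Ass1 by 1.06 to 1.28 and Ddah2 by -1.28 to -1.03 over the 16 alternatives.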

How the data were processed

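RNA of 8 samples was measured on Affymetrix whole-transcript arrays, with biotin-labelled sense-strand DNA per the labels' protocols. The deposited values are log2 values per probe set that the authors made with GC-RMA, a method with a background correction that depends on probe sequence and a normalization between arrays. Per the submitters' processing notes the tools were GCRMA and Partek, for which the sources used here give no version or build. Both deposited tables held the same values (largest difference 0), so no raw scan or depth was analysed and the number of arrays limits precision: the median half-width of a 95% interval was 0.21 log2 units.

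Of 35556 probe sets, 26836 carried a symbol. Symbols were updated from RefSeq (22036 by accession, 3614 by current symbol, 143 by synonym, 1043 kept), leaving 25050 genes, each by its brightest probe set. Stages were taken from the titles and compared in limma 3.58.1 (R 4.3.3) with a trended prior variance and p-values adjusted by Benjamini-Hochberg over all genes. In simulated data with 25050 genes and independent normal noise, 67, 67 and 66 genes were raised in lactation by 0.5, 1 and 2 log2 units. The fit recovered 56.72%, 95.52% and 100% of them, with 10 false calls among 178. Far fewer genes changed there than were called in the real data, and none fell. These shares are therefore a check of the code and not the sensitivity of this comparison. Any 2 arrays differed by an SD of at least 0.203, so no 2 arrays held the same values. This cannot show whether 2 arrays shared an RNA sample. The members and lists were chosen with earlier results of these data known. Named genes are the members, up to 3 called genes per list and direction, the 3 nearest profiles of the 3 most changed members, and a few markers; 1 gene that this rule chose is not reported here. Other genes were named afterwards: Slc7a1, Slc7a6, Oat, Cps1, Otc, the antizymes, Prmt3, Prmt5, Prmt9, Gch1, the receptor subunits and the luminal markers other than Epcam and Krt8. Alternatives were the variance model, array weights, a filter on dim genes, quantile normalization, 2 centrings, the mean of probe sets, a replicate block and leaving out each array.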

Additional observations from a re-analysis of the deposited data

Results flagged for a closer look

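In 6 of 64 groups of 4 arrays tested for the 32 members and list genes that the naming rule chose, 1 array lay apart from the other 3 beyond the 95% limit of Dixon's ratio of gap to range. Chance flags about 1 in 20 groups. Ass1 was 7.76 on pregnancy day 14 replicate 2, against 7.45 to 7.48 on the other pregnancy arrays, still below every lactation array. Sms was 4.09 on lactation day 4 replicate 2, against 4.70 to 4.81 elsewhere in lactation, and 5.09 on pregnancy day 14 replicate 4, against 5.42 to 5.46. Dhps was 5.62 on lactation day 4 replicate 2, against 5.77 to 5.80. Gchfr was 6.45 on lactation day 4 replicate 1, against 6.06 to 6.11. Prmt1 was 7.14 on pregnancy day 14 replicate 4, against 6.91 to 6.93.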

How the results depend on the processing

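The 4 calls among the 9 members other than Ddah1, 3 higher and 1 lower, held under all 16 alternatives, and no member gained a call (Nos1 and Arg1 were dropped by the filter on dim genes). Over all genes, 6463 were called, and 13180 when arrays were centred on their brighter 60% of genes, of which 10807 were higher and 2373 lower. Higher calls numbered 3719 with arrays centred on their median, against 2438 in the deposited scaling, and ran from 1537, without pregnancy day 14 replicate 3, to 2487 when each array was left out. For the 64 other pathway genes, higher calls went to 21 and lower calls to 8 with the brighter centring, and lower calls to 9 after quantile normalization, against 10 and 16. The cause of these shifts was not tested. Leaving out each array, Arg1 minus Arg2 shifted by -2.03 to -1.28 and Ass1 minus Asl by 1.30 to 1.38. In the exact test with 1 array left out (35 splits), Arg1 minus Arg2 had p = 0.0571 without any 1 lactation array, since the split that sets pregnancy replicates 1, 3 and 4 against the rest gave a shift as large, and p = 0.0286 without any 1 pregnancy array. Ass1 minus Asl had an exact p of 0.0286 in all 8 cases, or 0.0571 adjusted over the 2 pairs where a lactation array was left out. The deviations of samples with the same replicate number had correlations of 0.24, -0.16, 0.15 and 0.18. Pairs with different numbers were not set beside them, so these values cannot show whether a number stands for a shared batch. A replicate block called 2530 genes higher and 3935 lower and left 3 members higher and 1 lower, and it ended the call of Adh5 (limma adjusted p = 0.0505).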
